A study of Mus musculus with 12 samples.

Results

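The genes described here encode the oxidative phosphorylation machinery, and they were followed across 4 treatment groups of mouse embryonic fibroblasts. Members were the protein-coding genes whose names begin with Ndufa, Ndufb, Ndufc, Ndufs, Ndufv, Sdha, Sdhb, Sdhc, Sdhd, Uqcr, Cox4 to Cox8 or Atp5, together with every protein-coding gene of chromosome MT. This gave 96 nuclear and 13 chromosome MT members, 109 of the 48709 genes in the count table. By name the nuclear members comprised 38 complex I genes, 4 complex II genes, 8 complex III genes, 18 complex IV genes, 17 ATP synthase genes and 11 assembly factors. The fibroblasts were wild type, came from C57BL/6 embryos of day 12.5 to 13.5 and were plated the day before transfection. Cells of the siIMP2 group received an siRNA against IMP2 and no stimulus, and cells of the siControl group a control siRNA and no stimulus. In the siIMP2_IL17 and siControl_IL17 groups, interleukin-17 (IL-17, an inflammatory cytokine) was added at 200 ng/mL for 8 hours, starting 24 hours after the same siRNAs. The siRNA target, IMP2 (gene name Igf2bp2), binds RNA and has been reported to bind mRNAs of respiratory chain subunits.

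Oxidative phosphorylation takes place in the inner mitochondrial membrane. Complexes I to IV pass electrons from NADH and succinate to oxygen, complexes I, III and IV pump protons, and ATP synthase uses the proton gradient to make ATP. Most subunits are encoded in the nucleus and imported, while a small set of core subunits is encoded by the mitochondrial genome, so both genomes must supply the same complexes. Several subunits exist as a ubiquitous form and as a muscle, lung or testis form.

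Libraries numbered 3 in each group, with 33841054 to 44433699 counts over all genes. Library titles begin with NA for replicates 1 and 2 of every group and with RB160 for replicate 3. Of the 13702 genes tested, 69.5% differed between the title sets by edgeR's quasi-likelihood test at an adjusted p below 0.05, so the set was a term in the fit. Whether libraries of a group were grown as separate cultures is not stated, and p-values therefore cover only the variation among these libraries. Levels are given in CPM, read counts scaled to library size and to a normalisation factor (TMM) for each library. The siRNA target Igf2bp2 averaged 21.9 ± 3.01 CPM in siIMP2 and 149 ± 17.1 CPM in siControl (SD, n = 3 each). With IL-17, Igf2bp2 averaged 23.6 ± 4.90 CPM in siIMP2_IL17 and 154 ± 13.5 CPM in siControl_IL17 (SD, n = 3 each). All 14 fibroblast markers were measured, with a summed level of 19252 to 24099 CPM in siIMP2, 18869.6 to 22944 CPM in siControl, 17989 to 19119 CPM in siIMP2_IL17 and 16549 to 18859 CPM in siControl_IL17. Most of that sum came from Col1a1, Col1a2 and Vim. Of the 14 markers, 9 fell and 1, Col1a1, rose in both siRNA comparisons. These are 71.4% of the markers, against 32.9% of all genes without and 33.4% with IL-17. The median log2 fold change of the markers was -0.50 without and -0.44 with IL-17. The other 4, Vim, Postn, S100a4 and Thy1, were not called. Vim averaged 3193 ± 162 CPM in siIMP2 and 3243 ± 169 CPM in siControl (SD, n = 3 each). Pdgfra, a platelet-derived growth factor receptor, averaged 11.3 ± 12.7 CPM in siIMP2 and 51.2 ± 56.1 CPM in siControl, and Dcn, a matrix proteoglycan, 2.71 ± 3.68 CPM in siIMP2 and 14.5 ± 14.96 CPM in siControl (SD, n = 3 each). The part of this marker difference in the results on oxidative phosphorylation genes was not tested. Because these are bulk samples, fewer cells of a type and less RNA per cell cannot be told apart.

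Transcript levels per length were compared in TPM, which scales counts to exon length and library size. In siControl, chromosome MT genes averaged between 3284 TPM (mt-Nd3) and 25859 TPM (mt-Atp6), all above the highest nuclear member, Atp5b, which encodes the catalytic beta subunit of ATP synthase and had 812 TPM. The median nuclear member had 93.3 TPM, 44 of 96 nuclear members had at least 100 TPM, and 6 were under 1 TPM. Those 6 did not pass the filter on low counts and were not tested. They were Cox4i2, Cox7a1, Cox7b2, Cox8b, Cox8c and Ndufa4l2, which encode isoforms of subunits that have a ubiquitous form. Cox7b2, Cox8b and Cox8c had 0 reads in all 12 libraries, which allows up to 3 reads, or 0.0590 to 0.0941 CPM, per library. Cox4i2 had at most 9 reads, and Cox7a1 and Ndufa4l2 at most 4 reads, in any library. The remaining 90 nuclear and all 13 chromosome MT members were tested.

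The first question was how these genes differed between the IMP2 and the control siRNA. Without IL-17, 10 nuclear members rose and 6 fell, 17.8% of the 90 tested, against 32.9% of all genes tested. With IL-17, 11 rose and 6 fell, 18.9% of the 90, against 33.4% of all genes. In the mean of both siRNA differences, which sets 6 libraries against 6, 17 nuclear members rose and 11 fell, or 31.1% against 49.5% of all genes. Counts given below for each complex and for the assembly factors stand beside these same shares of all genes. By edgeR, 43.3% of all genes without and 43.5% with IL-17 had an unadjusted p below 0.05. The median log2 fold change over the nuclear members was 0.05 without and 0.01 with IL-17, beside -0.00 and -0.01 over all genes. The members' median size of change, 0.09 and 0.08 on the log2 scale, lay beside 0.19 and 0.20 over all genes. Of the members called without IL-17, 13 (81.2%) were also called in the same direction with IL-17, and these were 76.5% of the members called with IL-17. Over all genes the 2 shares were 81.2% and 79.9%. These calls rest on the title-set term: without it, 1 nuclear member (Cox6a2) was called in each of the single comparisons and 4 (Atp5g1, Cox6a2, Ndufb6 and Sdha) in the mean. With the NA libraries alone the calls without IL-17 of Atp5g1, Cox6a1, Ndufa4, Ndufb6, Ndufv2, Uqcr11 and Uqcrb were lost. Without IL-17 the siIMP2 libraries lay wholly above those of siControl for 6 of the 90 nuclear members and wholly below for 5. With IL-17 these counts were 4 and 5. The share over all genes was not computed, so whether these counts differ from those of other genes cannot be told. Where groups below are said not to overlap, this is a description of genes mostly picked by p in the same libraries.

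**Figure D1:**
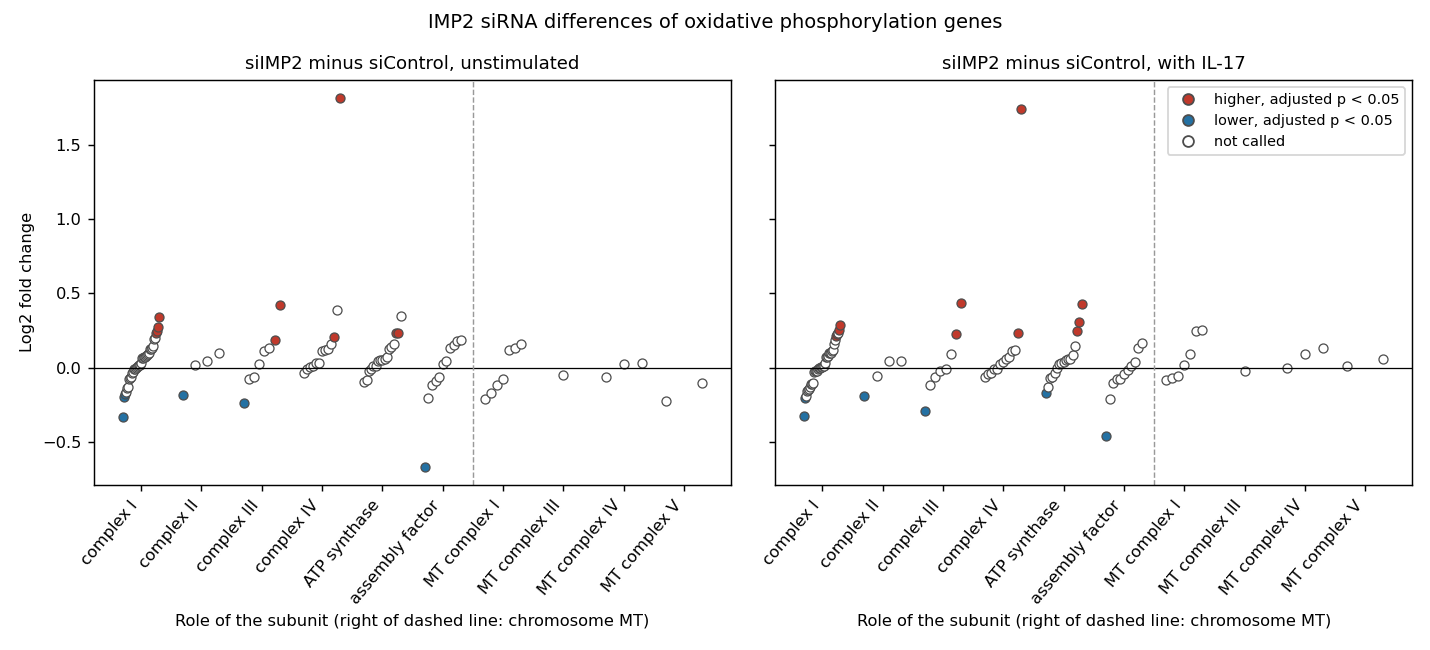
Each point is a tested gene, placed by its log2 fold change (vertical axis, siIMP2 minus siControl) and the complex it belongs to, without IL-17 on the left and with IL-17 on the right. Filled points passed an adjusted p of 0.05. Most genes lie close to 0, Cox6a2 stands above the rest at 1.81 and 1.74, and no chromosome MT gene is filled.

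The summed level of the nuclear members differed between the siRNAs by less than the spread between libraries. It averaged 7382 ± 537 CPM in siIMP2 and 7172 ± 561 CPM in siControl, and 7191 ± 678 CPM in siIMP2_IL17 and 7071 ± 480 CPM in siControl_IL17 (SD, n = 3 each). In every group the RB160 library had the lowest sum, so this spread includes the difference between the title sets.

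Complex IV, cytochrome c oxidase, passes electrons to oxygen. Of its 13 tested nuclear genes, 2 rose and 0 fell in each siRNA comparison by edgeR, where 4 without IL-17 and 2 with IL-17 had an unadjusted p below 0.05. The gene with the largest change among all nuclear members was Cox6a2 (mm10 chromosome 7, 128205435 to 128206387, minus strand), the heart and skeletal muscle isoform of subunit VIa. It had 2.13, 1.63 and 1.89 CPM in siIMP2, against 0.628, 0.538 and 0.452 CPM in siControl. With IL-17 it had 1.25, 1.44 and 1.21 CPM in siIMP2_IL17, against 0.558, 0.321 and 0.295 CPM in siControl_IL17. The groups did not overlap in either comparison. The log2 fold change was 1.81 ± 0.24 (SE, n = 3 per group, adjusted p = 0.000106) without IL-17 and 1.74 ± 0.26 (adjusted p = 0.000234) with IL-17, and no processing alternative ended the call. These levels rest on 41 to 80 reads per library with the IMP2 siRNA and 11 to 23 reads with the control siRNA. Per length, Cox6a2 reached 7.60 ± 1.34 TPM in siIMP2 and 2.26 ± 0.188 TPM in siControl, while its ubiquitous counterpart Cox6a1 had 629 ± 90.9 and 574 ± 96.7 TPM in the same groups.

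Beside Cox6a2, 2 of the 9 listed markers of skeletal and cardiac muscle, Tnnt2 and Acta1, rose in both comparisons, and 1 further marker was tested and not called. The 2 are 66.7% of the 3 tested, against 32.9% of all genes without and 33.4% with IL-17. The summed level of the 9 markers was 110.5 to 279 CPM in siIMP2 and 41.0 to 71.3 CPM in siControl, and 79.0 to 232 CPM in siIMP2_IL17 and 24.0 to 53.1 CPM in siControl_IL17. Most of it was Acta1, a skeletal muscle actin, which averaged 170.2 ± 80.4 CPM in siIMP2 and 40.8 ± 8.49 CPM in siControl (SD, n = 3 each). The muscle-determining factor Myod1 was at 0 in all 12 libraries, Ckm in both groups with the control siRNA and Actc1 in every group except siControl_IL17. Markers of other cell types also moved in both comparisons. Krt8 (epithelium) rose, and Cdh1 (epithelium) and Fabp4 (adipocyte) fell, from averages of 0.183, 0.729 and 1.08 CPM in siControl. The part of any of these markers in the Cox6a2 result was not tested.

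Cox6a1 (chromosome 5, 115345642 to 115348981, minus strand) had 195, 184 and 115 CPM in siIMP2, against 155, 173 and 100.4 CPM in siControl. The RB160 library was the lowest in both groups, so the groups overlapped, whereas within the NA set the siIMP2 libraries lay above the siControl libraries. The log2 fold change was 0.21 ± 0.07 (adjusted p = 0.0350) without IL-17 and 0.24 ± 0.07 (adjusted p = 0.0180) with IL-17, but offsets for GC content and transcript length ended both calls and that in the mean. The call without IL-17 was lost with all reads at a gene and without siControl replicate 1 or 2 or siIMP2 replicate 1 or 3 (adjusted p up to 0.144), and the call with IL-17 without siControl_IL17 replicate 2 or 3 or siIMP2_IL17 replicate 1 or 2 (up to 0.087). In the mean of both comparisons Cox6b1, Cox4i1 and Cox7a2l also rose, by 0.11 ± 0.04, 0.11 ± 0.04 and 0.12 ± 0.04 log2 units. Cox4i1 and Cox6b1 encode ubiquitous subunits, and Cox7a2l a factor reported to join complexes III and IV, a role not examined in these cells. The calls of Cox4i1 and Cox6b1 were each lost in 9 of 12 fits that left out 1 library, and that of Cox7a2l in 3. The offsets, and leaving out chromosome MT genes, also ended the calls of Cox4i1 and Cox6b1, upper-quartile scaling that of Cox4i1 and the NA libraries alone that of Cox6b1. The testis isoform gene Cox6b2 had a log2 fold change of 0.39 ± 0.27 without IL-17 (adjusted p = 0.301), Cox7a2 one of -0.01 ± 0.07 and Cox8a one of 0.01 ± 0.06.

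Complex III carries electrons from ubiquinol to cytochrome c. Of its 8 genes, 2 rose and 1 fell in both comparisons, a share near the 32.9% of all genes without and 33.4% with IL-17. Uqcrq (chromosome 11, 53427922 to 53430831, minus strand), a small ubiquinone-binding subunit, had 92.6, 96.3 and 67.3 CPM in siIMP2, against 69.3, 76.3 and 46.9 CPM in siControl. With IL-17 it had 99.996, 99.0 and 61.1 CPM in siIMP2_IL17, against 68.2, 80.1 and 44.6 CPM in siControl_IL17. Within each title set every siIMP2 library was above every siControl library, although the pooled groups overlapped. Its log2 fold change was 0.43 ± 0.07 in both comparisons, with adjusted p = 0.000612 without and 0.000506 with IL-17. Uqcr11, another small subunit, rose by 0.19 ± 0.06 (adjusted p = 0.0345) and 0.23 ± 0.06 (adjusted p = 0.0133) log2 units, calls that the GC and length offsets ended. The first was also lost with only the groups compared and without siControl replicate 1 or any siIMP2 library (adjusted p up to 0.112), and the second without siIMP2_IL17 replicate 1 (0.0568).

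Uqcrb, a further small subunit, went the other way. It had 80.8, 71.4 and 67.5 CPM in siIMP2, against 90.1, 83.5 and 84.0 CPM in siControl. In IL-17-treated cells it had 77.6, 70.4 and 60.7 CPM in siIMP2_IL17, against 82.8, 92.6 and 79.2 CPM in siControl_IL17. The groups did not overlap in either comparison. The log2 fold changes were -0.23 ± 0.07 (adjusted p = 0.0244) and -0.29 ± 0.07 (adjusted p = 0.00749), and the first was lost with the NA libraries alone and without siControl replicate 1 or 3 or siIMP2 replicate 2 or 3 (adjusted p up to 0.119). Uqcrc1 and Uqcrc2, the core proteins, and Uqcrfs1, the Rieske iron-sulfur protein, were not called in either comparison.

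Complex I takes electrons from NADH. Of its 37 tested genes, 4 rose and 3 fell without IL-17, 4 rose and 2 fell with IL-17, and 6 rose and 6 fell in the mean of both. Among those that rose, Ndufb6, an accessory subunit of the membrane arm, had 21.3, 21.9 and 22.3 CPM in siIMP2, against 17.3, 19.5 and 17.4 CPM in siControl. In IL-17-treated cells it had 23.6, 21.0 and 22.002 CPM in siIMP2_IL17, against 18.7, 18.0 and 19.2 CPM in siControl_IL17. The siIMP2 libraries lay above the siControl libraries in both comparisons, with log2 fold changes of 0.28 ± 0.07 (adjusted p = 0.0102) and 0.25 ± 0.07 (adjusted p = 0.0160). The second call was lost without siIMP2_IL17 replicate 1 or siControl_IL17 replicate 2 (adjusted p up to 0.0736). Ndufa3, also accessory, rose by 0.25 ± 0.07 and 0.22 ± 0.07 log2 units (adjusted p = 0.0218 and 0.0403), and leaving out 1 library lost the first call in 3 of 12 fits and the second in 5. The second was also lost with the NA libraries alone and with only the groups compared. Ndufa1, a small membrane-arm subunit, rose by 0.34 ± 0.09 without IL-17 (adjusted p = 0.00956), a call that the GC and length offsets ended, and had a log2 fold change of 0.23 ± 0.09 with IL-17 (adjusted p = 0.0567). Ndufa11 rose in the mean of both by 0.24 ± 0.05 log2 units (adjusted p = 0.00187).

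Of the complex I genes that fell, Ndufs4 (chromosome 13, 114287795 to 114388094, minus strand) had the smallest p. It encodes an accessory subunit of the NADH-oxidising arm whose loss in mice causes a fatal encephalopathy. It had 28.2, 25.3 and 35.5 CPM in siIMP2, against 33.7, 32.9 and 45.5 CPM in siControl. Under IL-17 it had 29.3, 26.9 and 37.2 CPM in siIMP2_IL17, against 34.1, 34.7 and 48.7 CPM in siControl_IL17. The RB160 library was the highest of every group, and within each set every siIMP2 library was below every siControl library. The log2 fold change was -0.33 ± 0.06 in both comparisons, with adjusted p = 0.00112 without and 0.00117 with IL-17.

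Ndufv2, a core iron-sulfur subunit of the same arm, fell by 0.19 ± 0.06 (adjusted p = 0.0350) and 0.20 ± 0.06 (adjusted p = 0.0281) log2 units, and both calls ended with the GC and length offsets. Leaving out any siIMP2 library or siControl replicate 1 or 3 also lost the first (adjusted p up to 0.156), as did only the groups compared, no filter beyond 1 count, uniquely mapped reads and all reads at a gene, and 4 of 12 such fits lost the second (up to 0.140). Ndufa4, which is named for complex I and is now known as a complex IV subunit, fell by 0.18 ± 0.06 log2 units without IL-17 (adjusted p = 0.0266) and had a log2 fold change of -0.14 ± 0.06 with IL-17 (adjusted p = 0.0661); the call was lost without siControl replicate 3 or siIMP2 replicate 2 or 3 (adjusted p up to 0.163), with no filter beyond 1 count and with only the groups compared. Ndufb2 fell in the mean of both by 0.17 ± 0.05 log2 units (adjusted p = 0.0151), but with the GC and length offsets its log2 fold change was -0.07 and the call was lost.

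Complex II, succinate dehydrogenase, is the complex with no subunit from chromosome MT. Of its 4 genes 1 fell in each comparison and the same gene fell in the mean. This was Sdha (chromosome 13, 74322254 to 74350280, minus strand), the flavin-carrying catalytic subunit, with 144, 142 and 149 CPM in siIMP2, against 159, 165 and 169 CPM in siControl. Under IL-17 it had 139, 141 and 143 CPM in siIMP2_IL17, against 153, 164 and 166 CPM in siControl_IL17. The groups did not overlap, and the 6 siIMP2 libraries spanned only 139 to 149 CPM. The log2 fold changes were -0.18 ± 0.05 (adjusted p = 0.0101) and -0.19 ± 0.05 (adjusted p = 0.00704). Sdhc, a membrane anchor, had log2 fold changes of 0.10 ± 0.06 and 0.05 ± 0.06 and was not called.

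Assembly factors build the complexes and are not part of them. Of 11 factors 1 fell in both comparisons, Ndufaf6, which acts early in complex I assembly. It had 1.99, 1.75 and 2.22 CPM in siIMP2, against 2.89, 2.81 and 3.76 CPM in siControl. Under IL-17 it had 2.25, 1.98 and 3.11 CPM in siIMP2_IL17, against 2.84, 2.80 and 4.48 CPM in siControl_IL17. The groups were apart without IL-17 and overlapped with IL-17. The log2 fold changes of -0.66 ± 0.14 (adjusted p = 0.00330) and -0.46 ± 0.14 (adjusted p = 0.0216) were the lowest of any nuclear member, and the second was lost with uniquely mapped reads, all reads at a gene or the NA libraries alone, and without siIMP2_IL17 replicate 2 or siControl_IL17 replicate 3 (adjusted p up to 0.123). Ndufaf5 had a log2 fold change of -0.14 ± 0.06 in the mean of both and was not called (adjusted p = 0.0909).

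ATP synthase consists of a catalytic head, a stalk and a ring of c subunits that turns in the membrane. Of the 17 genes assigned to it by name alone, 2 rose and 0 fell without IL-17. By edgeR, 4 had an unadjusted p below 0.05 in that comparison. With IL-17, 3 rose and 1 fell. Atp5d, the delta subunit of the central stalk, had 284, 292 and 164 CPM in siIMP2, against 230.2, 262 and 137 CPM in siControl. In IL-17-treated cells it had 285, 294 and 143 CPM in siIMP2_IL17, against 236, 233 and 115 CPM in siControl_IL17. Within each set every siIMP2 library was above every siControl library, and the log2 fold changes were 0.24 ± 0.06 (adjusted p = 0.0132) and 0.31 ± 0.06 (adjusted p = 0.00279). The first call was lost without siIMP2 replicate 3 (adjusted p = 0.0693).

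The c subunit has 3 genes that encode the same mature protein. Atp5g1 had 94.8, 93.1 and 106 CPM in siIMP2, against 79.4, 85.2 and 85.0 CPM in siControl, and rose by 0.24 ± 0.06 log2 units (adjusted p = 0.00739). With IL-17 it rose by 0.25 ± 0.06 (adjusted p = 0.00514), again with groups that did not overlap. Atp5g2 rose in the mean of both by 0.14 ± 0.05 log2 units (adjusted p = 0.0401), but only 8.95% of its reads were uniquely placed and the call was lost with uniquely mapped reads, with all reads at a gene, with the GC and length offsets and in 8 of 12 fits that left out 1 library. Atp5g3 had a mean log2 fold change of 0.03 ± 0.04 and was not called. Atp5g2 had the highest level of the 3 per length, with 330 ± 24.4 TPM in siIMP2 and 313 ± 36.7 TPM in siControl. Atp5a1 and Atp5c1, the alpha and gamma subunits of the head and stalk, fell in the mean of both by 0.11 ± 0.03 and 0.13 ± 0.04 log2 units. Both calls were lost with the NA libraries alone, that of Atp5a1 also with no filter beyond 1 count, and that of Atp5c1 without siIMP2 replicate 2 (adjusted p = 0.0534). Atp5s, a coupling factor of low level, rose by 0.39 ± 0.10 log2 units in the mean.

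**Figure D2:**
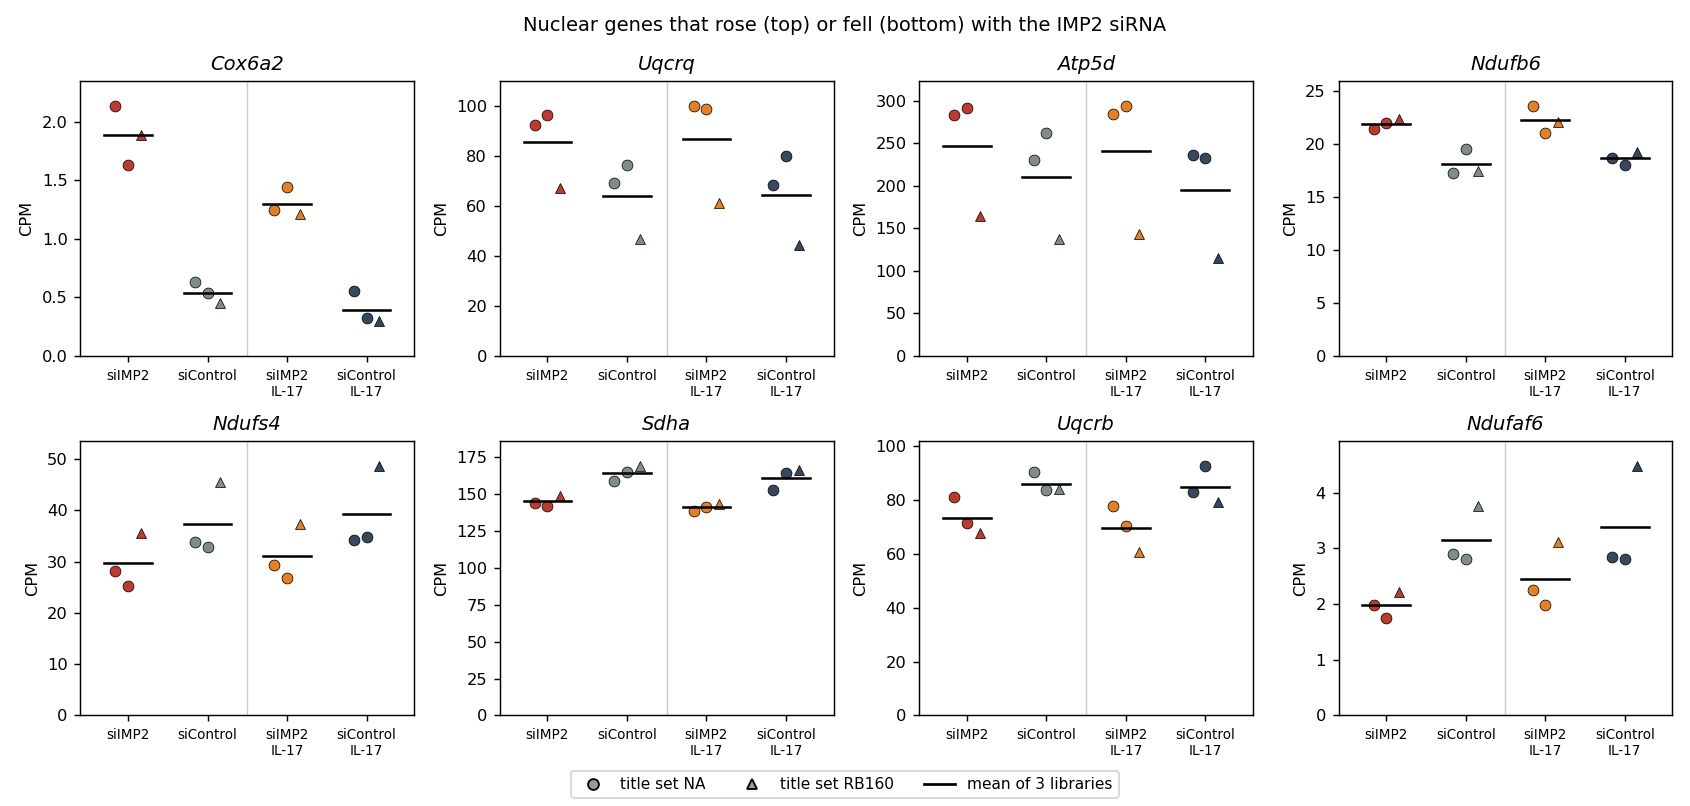
Each point is a library, with its CPM on the vertical axis and the 4 groups on the horizontal axis; circles are NA and triangles RB160 libraries, and the line is the mean of 3. Cox6a2, Ndufb6, Sdha and Uqcrb separate the siRNAs in both pairs of groups, whereas Uqcrq, Atp5d and Ndufs4 separate them only within a title set. Ndufaf6 overlaps with IL-17.

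Members called in the mean of both comparisons were described by features that the rule did not use. The 17 that rose had a median exon length of 1147 bases and a median transcript GC content of 52.4%, the 11 that fell 1908 bases and 45.1%, and the 62 others 1626.5 bases and 49.3%. All genes that rose had a median GC content of 51.8% and all that fell 47.9%. All 28 called members changed in the same direction in both title sets, as did 26 of the 62 others. The calls came from a fit over both sets, so this agreement is not independent of them. Between the sets themselves, 12 of the 17 risen members were lower and 1 was higher in RB160, while 6 of the 11 fallen members were higher and 3 were lower. The part of GC content and of whatever separates the sets in these differences was not tested further than by the offsets and the set term.

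Promoter sequences, from 250 bases before to 50 bases after the start site, came from RefSeq on GRCm38.p6 and were found for 77 of the 96 nuclear members. They are shown because respiratory genes are textbook targets of nuclear respiratory factors. Letter runs were searched on both strands and can overlap other motifs. The run GCATGCGC, the core of a nuclear respiratory factor 1 site, was present in 12 of the 77 promoters (15.6%), against 3.05% of 27025 genes with a promoter. CCGGAAG, the core of an ETS-family site such as that of GABP, was in 20 (26.0%) against 9.93%, AAGATGG, a core of YY1 sites, in 10 against 7.28%, and TATAAAA in 3 (3.90%) against 6.39%. Of the members that rose, 5 of 13 with a promoter held GCATGCGC, against 7 of 54 that were not called and 0 of 7 that fell. CCGGAAG was in 4 of 13 that rose, 16 of 54 not called and 0 of 7 that fell, AAGATGG in 1 of 13, 8 of 54 and 1 of 7, and TATAAAA in 0 of 13, 2 of 54 and 0 of 7. No test was made on these counts, and the 3 promoters printed were picked as examples with and without runs, not as typical of their direction. Below are the 250 bases before the start site of Cox6a1 (chr5:115348959-115349208, minus strand), Uqcr11 (chr10:80406822-80407071, minus strand) and Sdha (chr13:74350241-74350490, minus strand), each 5′ to 3′ on the gene's strand. Capitals mark those 4 letter runs on either strand, and Sdha holds none of them. Where copies of a run overlap in Cox6a1, only the first is marked.
Cox6a1: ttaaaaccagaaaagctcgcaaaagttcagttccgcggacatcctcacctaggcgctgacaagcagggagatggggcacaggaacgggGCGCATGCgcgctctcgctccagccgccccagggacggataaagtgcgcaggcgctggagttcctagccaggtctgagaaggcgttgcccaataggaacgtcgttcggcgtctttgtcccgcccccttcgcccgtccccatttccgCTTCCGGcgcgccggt
Uqcr11: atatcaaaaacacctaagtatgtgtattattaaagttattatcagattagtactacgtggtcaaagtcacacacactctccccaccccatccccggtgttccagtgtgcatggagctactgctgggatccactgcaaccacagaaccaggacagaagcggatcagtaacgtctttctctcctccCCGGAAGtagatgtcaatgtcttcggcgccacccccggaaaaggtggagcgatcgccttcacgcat
Sdha: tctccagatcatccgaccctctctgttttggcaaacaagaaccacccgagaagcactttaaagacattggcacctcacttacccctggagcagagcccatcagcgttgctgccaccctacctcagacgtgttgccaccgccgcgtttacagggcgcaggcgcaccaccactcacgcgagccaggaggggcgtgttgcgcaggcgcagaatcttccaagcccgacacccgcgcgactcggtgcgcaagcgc
The marked runs in Cox6a1 lie 162 and 16 bases before the start site and the run in Uqcr11 66 bases before it. The first of these is GCGCATGC, the reverse complement of GCATGCGC. GCATGCGC itself overlaps it and ends in the lowercase gc that follows. A run of letters in these windows is a description and not a bound site.

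The 13 chromosome MT genes encode 7 subunits of complex I, 1 of complex III, 3 of complex IV and 2 of ATP synthase, and are cut from long transcripts of a circular genome. Together they took 5.41% to 6.90% of the counts in NA libraries and 3.31% to 3.85% in RB160 libraries. Their summed level was 54359 ± 21478 CPM in siIMP2 and 54574 ± 17635 CPM in siControl, and 55910 ± 19808 CPM in siIMP2_IL17 and 55227 ± 22561 CPM in siControl_IL17 (SD, n = 3 each). Most of this spread lay between the title sets, and the 4 groups overlapped. All 13 genes were lower in RB160 than in NA libraries, by 0.59 ± 0.06 (mt-Co3) to 1.81 ± 0.09 (mt-Nd6) log2 units. Of the 90 nuclear members 20 were higher and 40 lower in RB160 (66.7%, against 69.5% of all genes), with a median difference of -0.04.

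**Figure D3:**
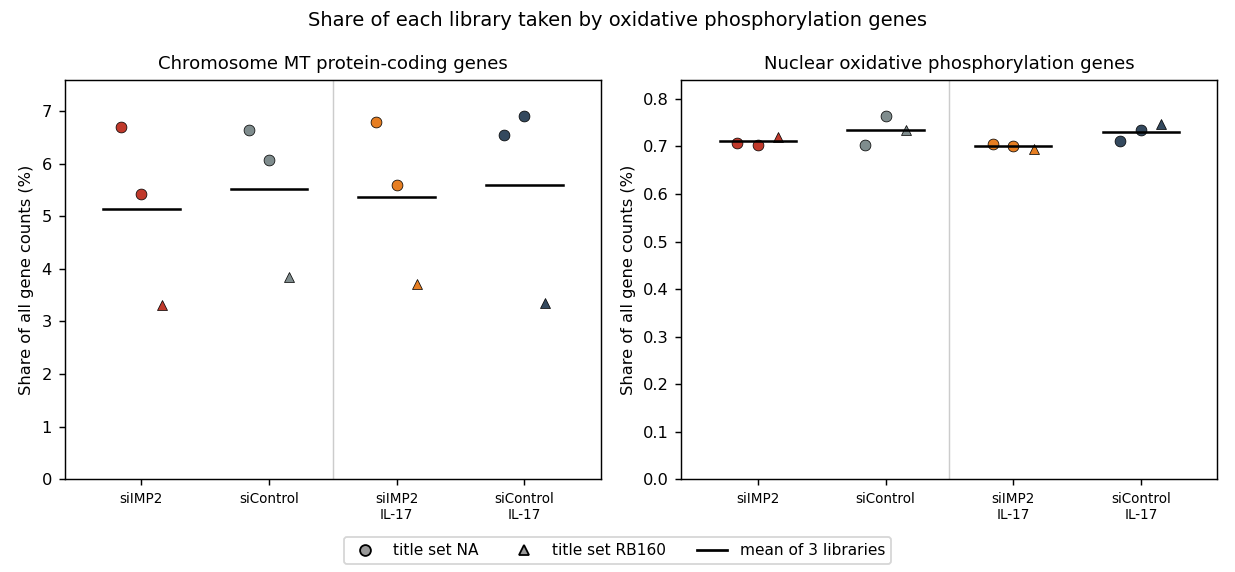
Points are libraries, with the share of all gene counts in percent on the vertical axis; circles are NA and triangles RB160 libraries, and the line is the mean of 3. Chromosome MT genes (left) take 5.41% to 6.90% in NA and 3.31% to 3.85% in RB160 libraries of every group, whereas nuclear genes (right) take a similar share everywhere.

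No chromosome MT gene was called for the IMP2 siRNA by edgeR in either single comparison, where 0 without and 2 with IL-17 had an unadjusted p below 0.05. DESeq2 called 0 without IL-17 and 1 with IL-17, and limma-voom 0 in both. The GC and length offsets called 1 without and 3 with IL-17, and no filter beyond 1 count called 2 with IL-17. The median log2 fold change over the 13 genes was -0.06 without and 0.02 with IL-17. The 95% intervals of 12 of 13 genes without IL-17, and of all 13 with IL-17, lay within a 1.5-fold change, so larger changes of these genes were outside the intervals. In the mean of both comparisons 2 of 13 rose (15.4%, against 49.5% of all genes), mt-Nd5 and mt-Nd6, which encode complex I subunits. Levels of mt-Nd5 were 6325, 5099 and 1983 CPM in siIMP2, against 5317, 4726 and 1942 CPM in siControl. With IL-17 they were 6400.1, 5306 and 2169 CPM in siIMP2_IL17, against 5212, 5365 and 1585 CPM in siControl_IL17.

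The groups overlapped for every chromosome MT gene, also among the NA libraries alone. For mt-Nd6 the levels were 1399, 1164 and 378 CPM in siIMP2, against 1123, 1076 and 364 CPM in siControl. With IL-17 they were 1460.5, 1163 and 381 CPM in siIMP2_IL17, against 1124, 1245 and 270.4 CPM in siControl_IL17. The mean log2 fold changes were 0.19 ± 0.07 for mt-Nd5 and 0.21 ± 0.08 for mt-Nd6, each with an adjusted p of 0.0423. Leaving out 1 library ended the call in 7 of 12 fits for mt-Nd5 and in 8 of 12 for mt-Nd6. Both calls were also lost with the NA libraries alone, with uniquely mapped reads and with all reads at a gene, and that of mt-Nd6 with a robust fit. The fits without siControl replicate 1 or 2, siIMP2 replicate 1 or 3, siIMP2_IL17 replicate 1 or 3, or siControl_IL17 replicate 3 called neither gene, with adjusted p-values up to 0.118 and 0.113 over all such fits. The other 11 genes lay between -0.15 and 0.08. The most abundant by CPM, mt-Co1, had a mean log2 fold change of 0.06 ± 0.07, mt-Cytb one of -0.03 ± 0.08 and mt-Nd2 one of -0.15 ± 0.07.

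**Figure D4:**
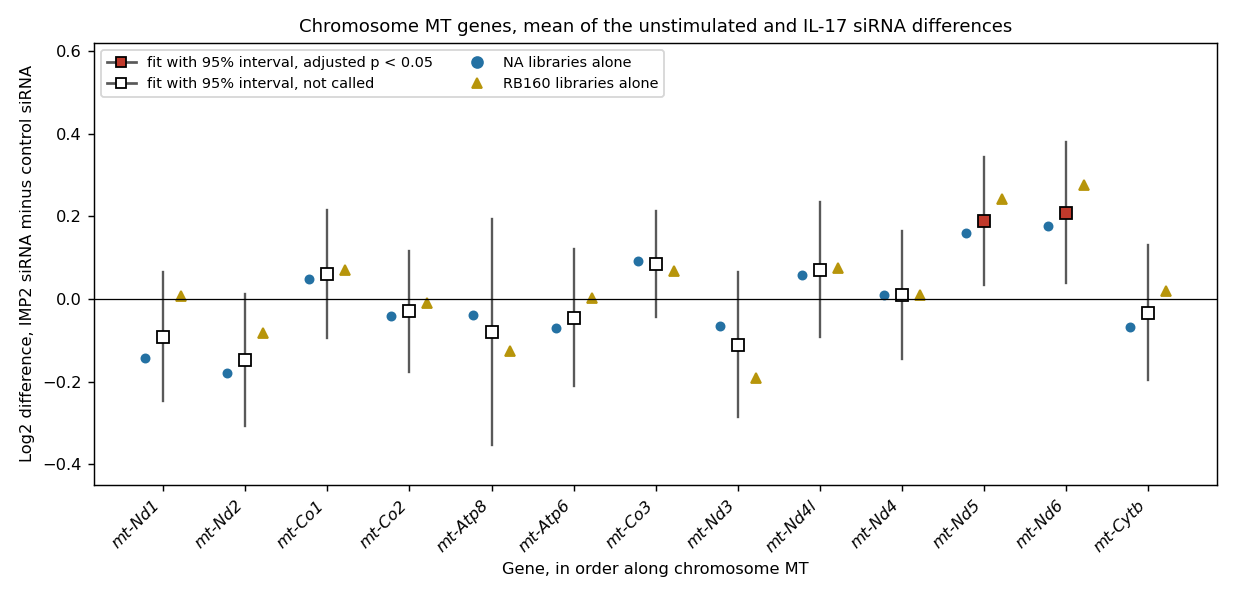
Squares are the mean log2 difference between the IMP2 and the control siRNA over both conditions with its 95% interval, in gene order along chromosome MT; circles and triangles are the same difference in NA and in RB160 libraries. The 2 filled squares are mt-Nd5 (0.19) and mt-Nd6 (0.21), and 11 intervals include 0.

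These 2 genes are neighbours on opposite strands and end tail to tail. On mm10, mt-Nd5 runs from 11742 to 13565 on the plus strand and mt-Nd6 from 13552 to 14070 on the minus strand, so they share 14 bases. The last 40 bases of each are shown because reads from this end can belong to either gene. The use of strand in counting is not given in the sources used here, so such reads cannot be told apart. Capitals mark the shared bases, read on each gene's own strand from GENCODE transcripts.
mt-Nd5: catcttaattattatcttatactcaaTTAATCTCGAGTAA
mt-Nd6: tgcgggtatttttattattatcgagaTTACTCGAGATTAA
A longer overlap joins mt-Atp8 (7766 to 7969) and mt-Atp6 (7927 to 8607), which share 43 bases on the same strand in different reading frames, as these 60 bases from the end of mt-Atp8 and the start of mt-Atp6 show, with the shared part in capitals.
mt-Atp8: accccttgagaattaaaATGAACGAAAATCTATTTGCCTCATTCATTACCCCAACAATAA
mt-Atp6: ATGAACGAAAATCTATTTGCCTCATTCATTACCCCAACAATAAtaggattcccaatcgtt
The mean log2 fold changes were -0.08 ± 0.13 for mt-Atp8 and -0.05 ± 0.08 for mt-Atp6, and neither was called.

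Read placement also limits these genes. Under 1% of the reads were uniquely placed for 5 of the 13 chromosome MT genes (mt-Co2, mt-Co3, mt-Atp6, mt-Nd3 and mt-Nd4l), and 41.2% for mt-Nd4. Of the 90 nuclear members 11 had under 80% of their reads uniquely placed, among them Atp5g2 with 8.95%, Ndufb4 with 12.6% and Cox7c with 13.2%. Their levels are uncertain, since near-identical copies could share those reads.

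The second question was what IL-17 changed. No member was called by edgeR in the IL-17 response with the IMP2 siRNA (0 of 103, against 0.511% of all genes) or with the control siRNA (0 of 103, against 0.423% of all genes). Unadjusted p-values below 0.05 were found for 4 nuclear members with the IMP2 siRNA and 2 with the control siRNA, and for 0 chromosome MT members. Over all genes these shares were 7.58% with the IMP2 siRNA and 11% with the control siRNA. The mean of both IL-17 responses called 0 members, against 2.72% of all genes, with an unadjusted p below 0.05 for 8 nuclear and 0 chromosome MT members. Such a p was found for 16% of all genes. DESeq2 called 1 nuclear member in that mean and limma-voom 0, and edgeR called 2 without siControl replicate 1. The smallest adjusted p was that of Cox6a1, with a mean log2 difference of -0.17 ± 0.05 (adjusted p = 0.0875), -0.09 in NA and -0.32 in RB160 libraries. Cox6a2 had one of -0.50 ± 0.18 (adjusted p = 0.169). The median log2 fold changes of nuclear members were -0.04 with the IMP2 siRNA and -0.01 with the control siRNA, and those of chromosome MT members 0.06 and -0.03. The 95% intervals of 87 of the 90 nuclear members lay within a 1.5-fold change in each response.

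The third question was whether the IL-17 response differed between the siRNAs. The test of this difference called 0 of 90 nuclear and 0 of 13 chromosome MT members by edgeR, with 0 at an unadjusted p below 0.05 in each, and 0 of all 13702 genes (0%). Of all genes 1.11% had an unadjusted p below 0.05. DESeq2 and limma-voom also called 0 members.

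Related gene lists give a frame for the nuclear members. In the mean of both siRNA comparisons, other oxidative phosphorylation genes outside the naming rule had 12 risen and 3 fallen genes of 37 tested (40.5%). The largest was Tmem70, an assembly factor of ATP synthase, which averaged 84.6 ± 20.8 CPM in siIMP2 and 51.0 ± 9.73 CPM in siControl and rose by 0.66 ± 0.04 log2 units. Ecsit and Timmdc1, complex I assembly factors, rose by 0.55 ± 0.05 and 0.45 ± 0.05, and Coa5, a complex IV assembly factor, fell by 0.50 ± 0.05 log2 units. Among 25 genes of mitochondrial DNA transcription and RNA handling 4 rose and 2 fell. Slirp, which stabilises mitochondrial mRNAs, rose by 0.31 ± 0.06, and Pnpt1, an RNA exchange and decay enzyme, fell by 0.31 ± 0.04 log2 units. Of 9 regulators of mitochondrial biogenesis 3 rose and 1 fell, among them Esrra, up by 0.17 ± 0.06, and Gabpa, down by 0.12 ± 0.04 log2 units.

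Of 13 genes of the tricarboxylic acid cycle, which feeds electrons to the chain, 1 rose and 4 fell. Idh3a rose by 0.22 ± 0.04 and Suclg2 and Ogdh fell by 0.32 ± 0.04 and 0.21 ± 0.04 log2 units. Of 15 outer membrane, import and carrier genes 5 rose and 4 fell (9 in all). Hspa9, an import motor chaperone, rose by 0.17 ± 0.04, and Slc25a5, an ADP/ATP carrier, fell by 0.14 ± 0.04 log2 units. Mitochondrial ribosomal protein genes had 10 risen and 8 fallen of 77 (23.4%), and genes named as cytosolic ribosomal proteins 6 risen and 16 fallen of 92 (23.9%). The second list is defined by name and holds kinases such as Rps6ka2, which rose by 0.66 ± 0.06 log2 units. All of these shares stand beside 49.5% of all genes.

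**Figure D5:**
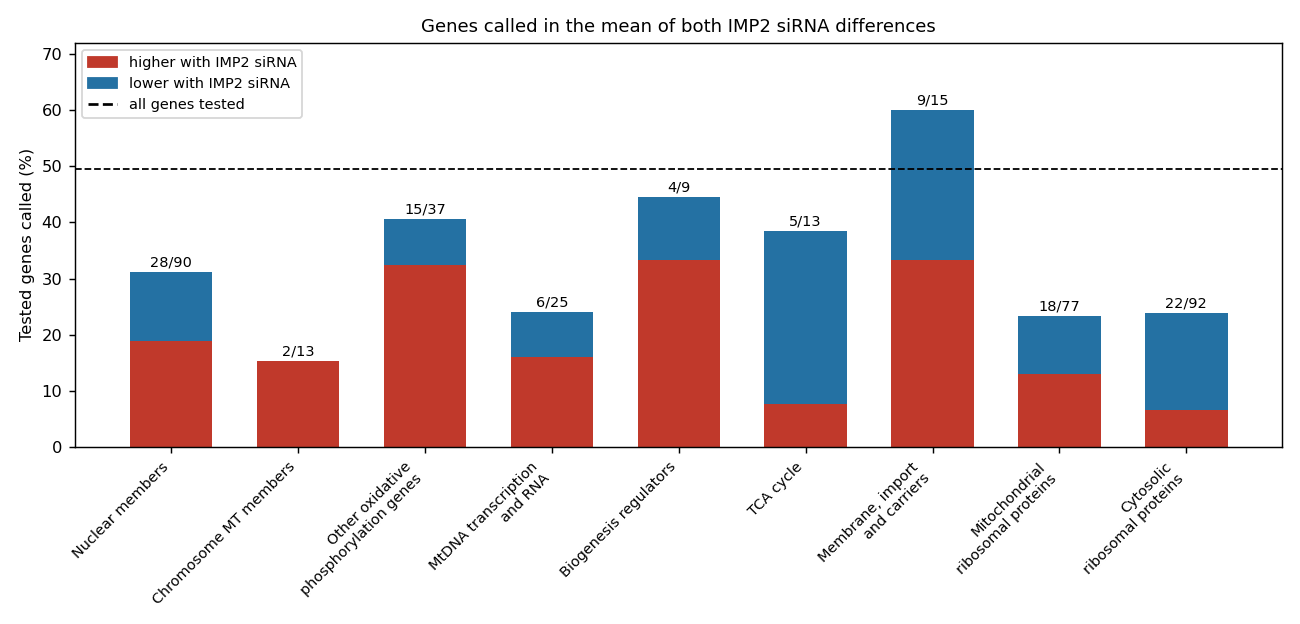
Bars give the percentage of tested genes called in the mean of both IMP2 siRNA comparisons, split into higher (red) and lower (blue), with called over tested genes above each bar. The dashed line is the 49.5% of all genes tested; 8 of the 9 lists lie below it, and membrane, import and carrier genes lie above it with 9 of 15.

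In the authors' deposited table no member passed an adjusted p of 0.05 in any of its 4 comparisons. The lowest adjusted p for a member in the authors' deposited table was that of Cox6a2, 0.252 without IL-17 and 0.373 with IL-17, with log2 fold changes of 1.82 and 1.75.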

How the data were processed

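The authors deposited whole-number counts of reads per gene for 12 libraries, values in TPM that are in proportion to count over exon length within a library, and, in the authors' own comparison columns, log2 fold changes and FDR p-values, as the file headers name them. Exon lengths, reads placed uniquely and all reads at a gene are other deposited columns, per the file headers. Per the file headers, trimmed read pairs were used; per the submitters' processing notes, the genome build was mm10. Not given in the sources used here are the aligner, the counter, the authors' model and the use of strand. 24 per-sample columns were not used.

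Groups came from the labels, the title set from the start of each title. edgeR 4.0.16 in R 4.3.3 fitted the counts: TMM factors, filterByExpr (minimum count 10, total 15), and a quasi-likelihood fit over 12 libraries with group and title set, Benjamini-Hochberg adjusted over 13702 genes at 0.05. Library totals over the genes tested, multiplied by the TMM factors, give 31.9 to 50.9 reads per CPM. Limits from counts of 0 cover counting error only. Replicate pairs differed beyond sampling noise. Named genes were all chromosome MT genes, the called members of smallest p per complex and direction (up to 4), isoform families, and up to 4 called genes per related list. Uqcrc1, Uqcrc2, Uqcrfs1, Atp5b and Cox7c, and the cell type markers given by name, were named after their values were seen. Members and lists were chosen with earlier results of these data known. Alternatives were other scaling (RLE, upper quartile), DESeq2 1.42.0, limma-voom (limma 3.58.1), other filters, no title-set term, uniquely mapped reads, the NA libraries alone, chromosome MT left out, a robust fit, only the groups compared, and each library left out. Offsets for GC content and length, and all reads at a gene, were chosen after seeing the data. Simulated counts were used to test the fit, with 200 genes changed in siIMP2. There edgeR recovered 73% of the 1.5-fold and 84% of the 2-fold changes and called 13 unchanged genes. Smaller changes were not simulated. Tables and figures used Python 3.11.15 (pandas 2.3.3, matplotlib 3.10.9).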

Additional observations from a re-analysis of the deposited data

How the results depend on the processing

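Leaving aside the fits without 1 library, no siRNA call of a named member changed direction under the alternatives. Only called members could count as reversed. Some log2 fold changes that were not called did change sign. With IL-17, Atp5g2 ranged from -0.05 to 0.21 and mt-Atp6 from -0.09 to 0.18. Without IL-17, mt-Nd3 ranged from -0.20 to 0.10. Without the title-set term, 1 nuclear member was called without IL-17, 1 with IL-17 and 4 in the mean of both siRNA comparisons. That fit called 0 chromosome MT members in the mean. With the NA libraries alone 10 nuclear members were called without IL-17 and 0 chromosome MT members in the mean. For chromosome MT members, uniquely mapped reads and all reads at a gene each gave 0 and a robust fit 1 in the mean. With IL-17, DESeq2 gave 1 and no filter beyond 1 count 2. Offsets for GC content and length gave 1 without and 3 with IL-17, and the nuclear counts stayed at 16 and 17, of which 12 and 13 were the same genes. DESeq2 called 1 nuclear member in the mean IL-17 response. The causes were not tested. Leaving out each library in turn gave 11 to 17 nuclear members without IL-17, 12 to 20 with IL-17, 22 to 31 in the mean, 0 to 2 in the mean IL-17 response and 0 in the single IL-17 responses and their difference. Chromosome MT members numbered 0 without IL-17, 0 to 2 with IL-17, 0 to 2 in the mean and 0 in the IL-17 tests. Igf2bp2 ranged from -2.89 to -2.66 without IL-17, -2.87 to -2.54 with IL-17 and -2.82 to -2.65 in the mean. No paired analysis was possible because replicate numbers were assigned in accession order and the labels tie no NA library to another; the title-set term already sets apart the RB160 libraries, 1 per group. Exon reads as an alternative were not run, since the deposited count is itself the exon read count. Shallow genes such as Cox6a2 rest on few reads, and reads shared between copies or overlapping genes limit the chromosome MT levels.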
